A study of Mus musculus with 6 samples.

Results

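Messenger RNA of 8 myeloid C-type lectin receptor genes, Clec4a1, Clec4a2, Clec4a3, Clec4d, Clec4e, Clec4n, Clec5a and Clec12a, was followed across 6 RNA-seq libraries of mouse peritoneal macrophages. The genes were taken by symbol from a table of 25509 gene rows, and each symbol stood on 1 row. All 8 passed the filter on low counts that left 12827 genes for testing. The cells came from C57BL/6 mice given thioglycollate, an irritant that draws myeloid cells into the peritoneal cavity. They were collected on day 4, enriched on a Percoll density gradient and kept if they stuck to plastic within 2 h of culture. The 3 WT libraries came from non-transgenic mice, and the 3 Tg-ACE libraries came from mice that overexpress angiotensin-converting enzyme (ACE), a genotype that the labels also call JWT and the series' design text calls Tg-NKO. The promoter of the transgene, the age of the mice and whether each library stands for a separate mouse are not given in the sources used here, so a p-value here speaks of the spread among these 6 samples, part of which may be technical. Replicate 1 of each genotype has the code Exp-156 in its description, the other 2 of each have Exp-156b, and what the codes stand for is not given.

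C-type lectin receptors are membrane proteins of macrophages, monocytes, neutrophils and dendritic cells that bind glycans, glycolipids or products of dying cells. Several of the activating ones signal through an adaptor with its own signalling motif. Clec4e (Mincle, a receptor for the mycobacterial cord factor), its partner Clec4d and Clec4n (a receptor for fungal mannans) pair with the adaptor Fcer1g, and Clec5a pairs mainly with the adaptor Tyrobp. These adaptors recruit the kinase Syk, which acts through Card9 to turn on inflammatory genes. Clec4a2 (the dendritic cell immunoreceptor) and Clec12a (a receptor for uric acid crystals) hold an inhibitory tail motif that recruits phosphatases such as Ptpn6, and Clec4a1 and Clec4a3 encode close relatives of Clec4a2.

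Library totals ran from 24294258 to 28120394 expected counts, and between 15559 and 15877 genes had at least 1 count per library. Ace, the transgene's gene, stood at 16.7, 7.60 and 11.6 counts-per-million (CPM) in WT replicates 1 to 3 and at 100.6, 25.6 and 31.8 CPM in the Tg-ACE replicates, so the lowest Tg-ACE library lay above the highest WT library. The libraries stood apart by experiment code. Xist, transcribed in female cells, had 0.409 and 0.527 CPM in the Exp-156 libraries but 327.3 to 454.5 CPM in those of Exp-156b. Ddx3y, a Y-linked gene, had 48.0 and 51.6 CPM in the former and at most 0.107 CPM in the latter. Experiment code and sex therefore cannot be told apart here. In bulk samples, fewer cells of a type and less RNA per cell cannot be told apart either. The summed level of macrophage genes such as Lyz2, Cd68 and Itgam was 18228 to 22176 CPM in the 6 libraries, so defining markers of the labelled cell type were abundant in each.

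Of the 8 genes, 6 lie in 1 stretch of chromosome 6 (GRCm38, GENCODE vM21 annotation, positions 122921848 to 123289870, 368.0 kb), in the order Clec4a1, Clec4a3, Clec4a2, Clec4n, Clec4d and Clec4e. Clec4e (123281789 to 123289870) is on the reverse strand and the other 5 are on the forward strand. Clec12a lies further along the same chromosome at 129342691 to 129365303 on the forward strand, and Clec5a lies apart at 40574894 to 40585821 on the reverse strand. Between the cluster's members stand 3 more genes, Clec4a4, Clec4b1 and Clec4b2. Of all 75-base windows in the members' annotated transcripts, only those of Clec4a2 were found in another gene (97 of 2990, 3.24%, shared with Clec4a4 and Clec4b1), so the other 7 values do not rest on reads that match a second annotated gene exactly.

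The letters upstream of the genes are shown for the 3 members that were higher in Exp-156b and for Clec4a1, the member with the greatest fold difference in the other direction. RefSeq promoter windows (GRCm38.p6) were found for 7 of the 8 genes and not for Clec4n, and each window holds the 250 bases before the start that RefSeq gives. These starts match the GENCODE gene starts for Clec4a1 and Clec4a3 and lie within a few bases of them for Clec4d and Clec4e. The others differ more: the windows of Clec4a2 and Clec12a lie inside the GENCODE genes, and that of Clec5a overlaps the end at which its gene begins. The letters of 4 motifs known from myeloid promoters were searched on both strands, with PU.1 as GAGGAA, C/EBP as TTGCNNAA, AP-1 as TGANTCA, where N is any base, and NF-kB as GGG and CC with any 5 bases between them. Capitals mark the matches, and each sequence reads 5′ to 3′ toward its gene. The windows are chr6:123289872-123290121 (reverse strand) for Clec4e, chr6:123261857-123262106 (forward strand) for Clec4d, chr6:40585806-40586055 (reverse strand) for Clec5a and chr6:122921598-122921847 (forward strand) for Clec4a1.
Clec4e: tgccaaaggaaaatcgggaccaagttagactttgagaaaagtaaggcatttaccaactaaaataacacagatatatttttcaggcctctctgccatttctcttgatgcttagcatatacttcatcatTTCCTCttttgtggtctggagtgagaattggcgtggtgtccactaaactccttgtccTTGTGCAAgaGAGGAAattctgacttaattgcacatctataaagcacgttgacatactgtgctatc
Clec4d: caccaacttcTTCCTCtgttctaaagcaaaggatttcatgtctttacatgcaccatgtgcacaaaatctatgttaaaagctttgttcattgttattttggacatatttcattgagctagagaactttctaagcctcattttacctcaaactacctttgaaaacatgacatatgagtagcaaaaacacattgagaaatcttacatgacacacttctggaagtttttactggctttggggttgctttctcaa
Clec5a: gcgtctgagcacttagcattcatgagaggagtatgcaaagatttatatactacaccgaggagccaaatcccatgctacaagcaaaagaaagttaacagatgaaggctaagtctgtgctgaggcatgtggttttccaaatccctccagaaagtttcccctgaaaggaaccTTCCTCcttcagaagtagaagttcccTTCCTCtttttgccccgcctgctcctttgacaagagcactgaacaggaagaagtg
Clec4a1: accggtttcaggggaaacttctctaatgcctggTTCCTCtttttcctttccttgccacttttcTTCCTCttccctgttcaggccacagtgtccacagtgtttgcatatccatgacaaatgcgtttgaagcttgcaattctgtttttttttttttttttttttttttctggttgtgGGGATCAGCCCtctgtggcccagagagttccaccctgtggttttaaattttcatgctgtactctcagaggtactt
The PU.1 letters occurred in 5 of the 7 windows, at 2 places in Clec4e, Clec5a, Clec4a1 and Clec12a and at 1 in Clec4d. Over 32851 RefSeq promoters of the same length, 23.25% held them. The C/EBP letters were in Clec4e, 66 to 59 bases before the start and next to a PU.1 match at 56 to 51, and in Clec12a, against 9.56% of all promoters. The NF-kB letters occurred in Clec4a1, as a pair of overlapping matches (45.8% of all promoters), and the AP-1 letters in Clec12a (6.75%). None of the 4 was found in the windows of Clec4a2 and Clec4a3. Genes higher and genes lower in Exp-156b thus both held PU.1 letters, and a match of letters is not a binding site.

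Clec4d mRNA was the most abundant of the 8. Levels between genes were compared per length, by dividing expected counts by exon length in kb and scaling them to the same sum, 1000000, over the annotated genes of each library. On this scale Clec4d stood at 533.8 ± 155.7 (SD, n = 6), ranging from 318.4 to 670.8, and it was first in each of the 6 libraries. Clec4a3 followed at 96.3 ± 38.1 and Clec12a at 68.3 ± 12.6 (both SD, n = 6). Clec4a1 stood at 61.7 ± 54.4, Clec4e at 25.1 ± 13.7, Clec4a2 at 21.2 ± 10, Clec5a at 20.1 ± 4.16 and Clec4n at 9.94 ± 2.58 (all SD, n = 6). Clec4d and Clec4a3, at the top of this order, did not overlap in any library, and neither did Clec5a and Clec4n at its end. The neighbours between them overlapped, and their order differed between the codes. Clec4a1 was number 3 in Exp-156 (129.7) and number 5 in Exp-156b (27.7), while Clec4e was last in Exp-156 (10.5) and number 4 in Exp-156b (32.4). Clec4a3 lay above Clec12a in 5 of 6 libraries with the exons of all transcripts as length. With the longest transcript as length, Clec12a (90.7) had a higher mean than Clec4a3 (76.4), so that order depends on the gene model.

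**Figure D1:**
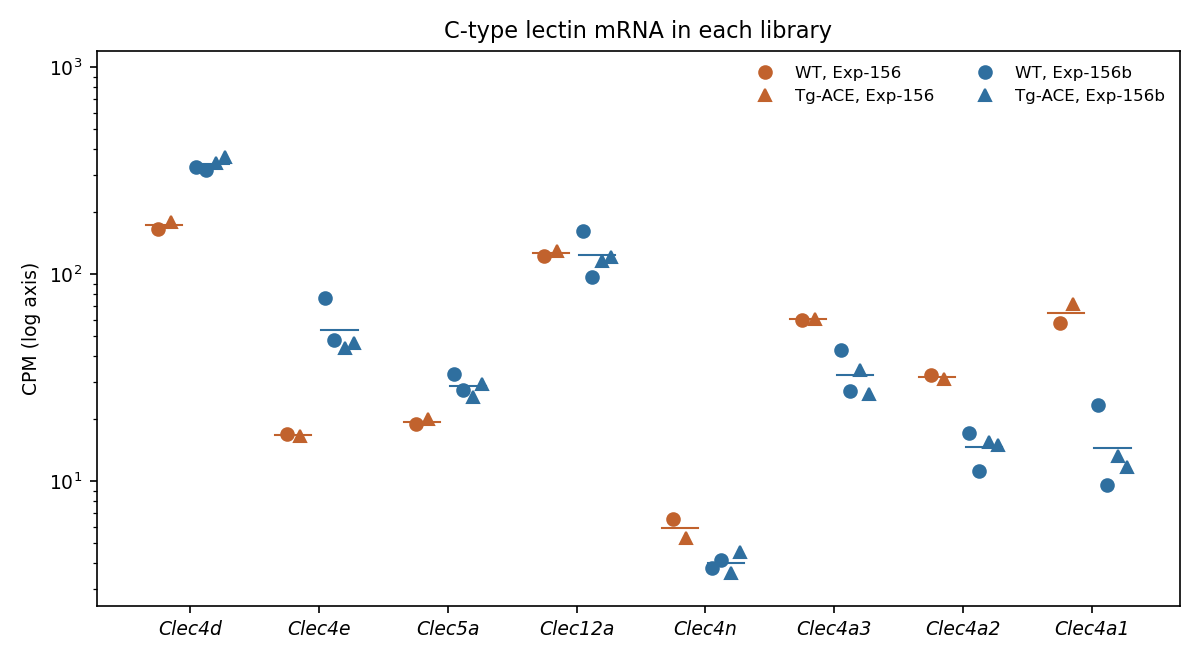
CPM of each of the 8 genes on a log axis, with circles for WT and triangles for Tg-ACE, orange for Exp-156 and blue for Exp-156b; short lines are the means of the 2 or 4 libraries of a code. The orange and blue points do not overlap for 7 genes and overlap for Clec12a, and the highest blue circle of Clec4e is WT replicate 2 at 76.7 CPM.

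Of the 8 genes 7 were called between experiment codes and 0 between genotypes. In Exp-156b the activating receptor genes Clec4e, Clec4d and Clec5a were 3.22, 1.98 and 1.48 times as high as in Exp-156, while Clec4a1, Clec4a2, Clec4a3 and Clec4n were 4.49, 2.17, 1.85 and 1.47 times as high in Exp-156 as in Exp-156b (ratios of mean CPM). Clec12a did not pass the test. With genotype and code in 1 edgeR quasi-likelihood fit and Benjamini-Hochberg adjustment, 3 members were higher and 4 lower in Exp-156b, together 7 of 8 (87.5%). Of all 12827 genes 42.9% passed, 20.0% higher and 22.9% lower, so the codes differed widely and the members' count is to be read against that share. The values of the 2 codes did not overlap for 7 of 8 members, as for 59.8% of all genes (28.9% higher, 30.9% lower). Calls of at least 1 log2 unit were made for 1 member higher (Clec4e) and 2 lower (Clec4a1 and Clec4a2), against 5.54% and 6.91% of all genes. The median log2 fold change of the 8 was -0.29, and that of all genes was -0.005. Code values for the 2 genotypes pointed the same way for each of the 7 members.

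Among receptors that use Fcer1g, Clec4d had 165.4 and 178.9 CPM in Exp-156 (WT, then Tg-ACE) and 331.0, 319.8, 344.8 and 366.4 CPM in Exp-156b (WT replicates 2 and 3, then Tg-ACE replicates 2 and 3). Every Exp-156b library was high, and the 4 differed from each other less than from either Exp-156 library. Its log2 fold change was 0.98 (SE 0.069, edgeR adjusted p = 5.8e-05), with 0.98 among WT and 0.99 among Tg-ACE libraries.

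Clec4e, the cord factor receptor gene, had 16.8 and 16.6 CPM in Exp-156 and 76.7, 47.9, 44.1 and 46.2 CPM in Exp-156b, in the same library order. The Exp-156 pair was nearly equal, and WT replicate 2 stood above the other 3 Exp-156b libraries. Exp-156b exceeded Exp-156 by 1.66 log2 units (SE 0.20, edgeR adjusted p = 6.35e-04), and by 1.48 with WT replicate 2 left out. Of all tested genes 312, itself included, had at least as high a value, and for Clec4d the number was 845.

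Clec4n, the mannan receptor gene and the lowest of the 8, had 6.55 and 5.31 CPM in Exp-156 and 3.80, 4.17, 3.59 and 4.52 CPM in Exp-156b, from 90 to 160 counts. The groups did not overlap, but the gap between them (4.52 to 5.31 CPM) was smaller than the gap within Exp-156. The log2 fold change was -0.56 (SE 0.17, edgeR adjusted p = 0.0353), opposite in sign to Clec4d and Clec4e, whose genes lie next to it and whose proteins use the same adaptor. This call is the least stable of the 7: it passed in 6 of 13 alternative analyses (adjusted p from 0.0264 to 0.280) and was lost in DESeq2, with upper-quartile scaling, and without WT replicate 1, 2 or 3 or Tg-ACE replicate 1 or 2.

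Clec5a, the receptor gene that works through Tyrobp, had 18.8 and 20.0 CPM in Exp-156 and 32.8, 27.6, 25.3 and 29.3 CPM in Exp-156b. All 4 Exp-156b libraries lay above both others. The rise was 0.57 log2 units (SE 0.11, edgeR adjusted p = 0.0053). With WT replicate 1 left out the call was lost (0.45, adjusted p = 0.0717).

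Among the Clec4a genes, Clec4a1 had 57.7 and 72.0 CPM in Exp-156 and 23.4, 9.58, 13.2 and 11.7 CPM in Exp-156b. Its mean differed between the codes by the greatest fold of the 8, and WT replicate 2 was again the highest of its code. The log2 fold change was -2.17 (SE 0.29, edgeR adjusted p = 0.00105), and 217 tested genes, itself included, had as low a value.

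Clec4a2, the inhibitory receptor gene of this group, had 32.4 and 31.2 CPM in Exp-156 and 17.1, 11.1, 15.4 and 14.9 CPM in Exp-156b, with no overlap. Its log2 fold change was -1.12 (SE 0.15, edgeR adjusted p = 9.75e-04). Only for this member were some deposited counts fractional. Clec4a2 shares sequence with Clec4a4 and Clec4b1, but whether the fractions come from that was not tested. Clec4b1 also fell, from 6.96 and 6.96 CPM to between 0.636 and 1.43 CPM, so reads moved between these genes could touch the Clec4a2 value. Clec4b1 was picked out after its values were seen.

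Clec4a3 had 60.2 and 60.9 CPM in Exp-156 and 42.8, 27.4, 34.4 and 26.3 CPM in Exp-156b. The Exp-156 pair was again nearly equal and lay above the other 4 libraries. The log2 fold change was -0.89 (SE 0.18, edgeR adjusted p = 0.0053). With Tg-ACE replicate 1 left out the call was lost (-0.78, adjusted p = 0.0810).

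Clec12a, the uric acid crystal receptor gene, had 122.7 and 129.4 CPM in Exp-156 and 162.2, 97.2, 115.5 and 121.6 CPM in Exp-156b. The Exp-156 values lay inside the range of Exp-156b. The fitted difference was -0.024 (SE 0.18, 95% interval -0.44 to 0.39, edgeR adjusted p = 0.923), which leaves room for a difference of 0.39 in either direction. Without WT replicate 2 it was -0.21 (adjusted p = 0.0832).

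Taken within a library, the balance of 2 member genes does not depend on scaling between libraries. Clec4e had 0.230 and 0.291 counts for each Clec4a1 count in the Exp-156 libraries and 3.28 to 5.0 in the Exp-156b libraries. The ratio of Clec4d to Clec4a2 counts was 5.09 and 5.73 in Exp-156 and 19.3 to 28.8 in Exp-156b. Clec4a1 and Clec4a3, neighbours in the cluster, were near parity in Exp-156 (0.959 and 1.18) and Clec4a1 was the lower in Exp-156b (0.350 to 0.546). Clec4d counts exceeded Clec4e counts 9.83 and 10.8 times in Exp-156 and 4.32 to 7.92 times in Exp-156b, so this pair shifted in the same direction but by different factors.

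Markers of other cells moved with the code. Summed monocyte markers (8 genes, led by Fn1 and Ccr2) came to 3736 and 4545 CPM in Exp-156 against 542.9 to 1117 CPM in Exp-156b. Fn1 alone averaged 1873 CPM over the 6 libraries, so this sum was mostly Fn1. Of the monocyte markers 6 of 7 tested genes were lower and 0 higher in Exp-156b. Dendritic cell markers (9 genes, led by Cd209a, Dpp4 and Flt3) stood at 67.7 and 85.1 against 6.97 to 12.4 CPM, with 3 of 4 lower. Neutrophil markers (13 genes, led by Retnlg, Csf3r and Mmp9) stood at 353.2 and 810.5 against 102.5 to 109.4 CPM, with 5 of 8 lower, and the defining neutrophil gene Ly6g was at most 0.0409 CPM in any library. Markers of large peritoneal macrophages (9 genes, led by Alox15) were at 146.8 and 219.9 against 30.3 to 49.5 CPM, with 6 of 9 lower and 1 higher. The higher one was Gata6, at 5.32 and 6.79 CPM in Exp-156 and 12.6 to 17.8 CPM in Exp-156b. Its log2 fold change was 1.41 (edgeR adjusted p = 9.47e-04), so the list did not move as 1.

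Most of the remaining lists moved the same way, and the mesothelial and fibroblast list moved the other way. T and NK cell markers (8 genes) summed to 14.3 and 17.3 against 3.37 to 6.53 CPM, with 5 of 6 lower, and mast cell, basophil and eosinophil markers (11 genes) to 94.8 and 173.0 against 22.4 to 43.2 CPM, with 6 of 6 lower. B cell markers (5 genes) overlapped, at 95.5 and 122.1 against 56.4 to 128.4 CPM, and 0 of 5 passed. Mesothelial and fibroblast markers (8 genes) stood at 225.8 and 244.1 against 275.6 to 573.8 CPM, with 5 of 8 higher and 1 lower. Immediate early genes, which respond to handling of cells, stood at 1672 and 1988 against 807.5 to 882.0 CPM, with 7 of 8 lower. The counts of marker genes that passed are to be read against the 20.0% of all genes that were higher and the 22.9% that were lower. Genes counted well only in the Exp-156 libraries, such as Cd209a, fail the filter on low counts and are not among the tested genes. No gene of these marker lists was at 0 in all 6 libraries. The part of these lists in the members' differences was not tested.

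**Figure D2:**
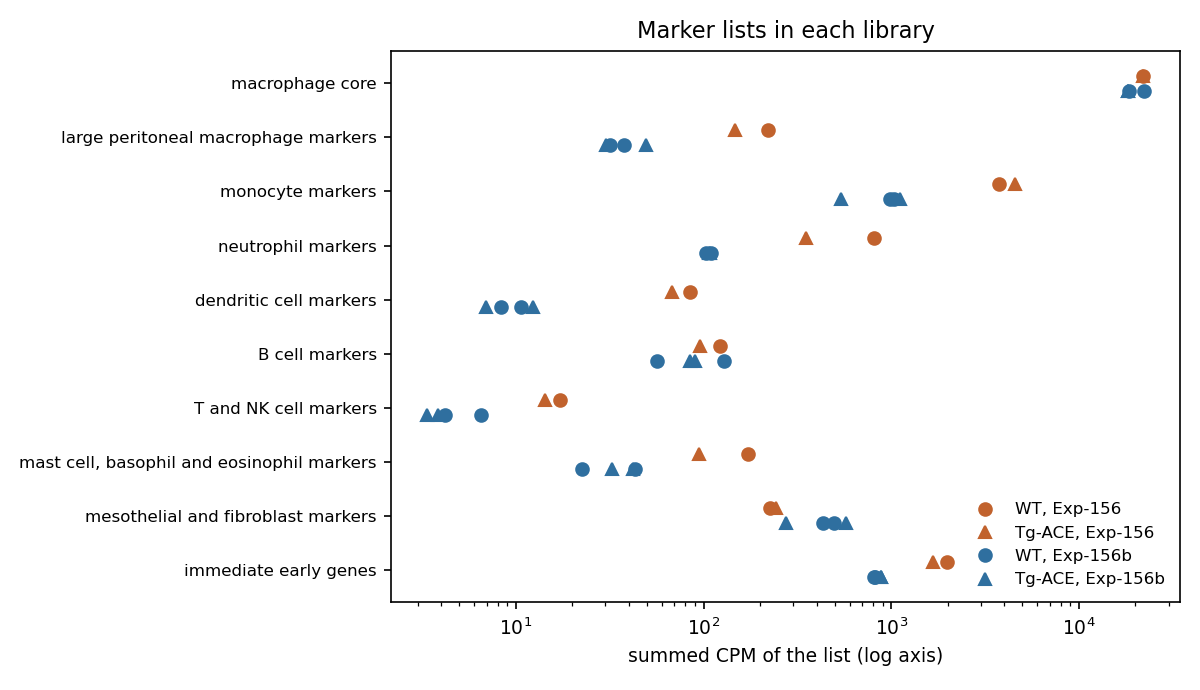
Summed CPM of each marker list in the 6 libraries on a log axis, with circles for WT, triangles for Tg-ACE, orange for Exp-156 and blue for Exp-156b. Orange points lie to the right of the blue ones for monocyte, dendritic, neutrophil, T and NK, mast cell and large peritoneal macrophage markers, and to their left for mesothelial and fibroblast markers.

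No member passed the test between Tg-ACE and WT, the comparison of ACE overexpression with the non-transgenic state. Ace itself did not pass either. Its log2 fold change was 2.14 with genotype only (edgeR adjusted p = 0.9998) and 1.95 with the code as a term (edgeR adjusted p = 0.136). These tests can thus miss a large difference, and a member that did not pass is not shown to be unchanged. With genotype as the only term in edgeR 0 of 8 passed, and of all genes 0% passed. At an unadjusted p under 0.05 there were 0 members and 0.982% of all genes (126). The 3 WT and 3 Tg-ACE values overlapped for all 8 members, and 4.91% of all genes had groups that did not overlap. For the 7 members whose codes did not overlap this was fixed in advance, because each genotype holds libraries of both codes. The overlap of those members therefore says nothing about genotype. Clec4d stood at 272.1 ± 92.6 CPM in WT and 296.7 ± 102.6 in Tg-ACE (SD, n = 3), a log2 fold change of 0.12, and Clec4e at 47.1 ± 29.9 and 35.6 ± 16.5, one of -0.40. Clec4a1 stood at 30.2 ± 24.8 in WT and 32.3 ± 34.4 in Tg-ACE (SD, n = 3), a log2 fold change of 0.10 with an SE of 0.92. Both groups hold 1 library of Exp-156 and 2 of Exp-156b, and the SDs include the gap between the codes.

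For the other 5 members too, the 2 group means lay less than 1 SD apart. Except for Clec12a these SDs also include the gap between the codes, so they are a wide measure for a genotype difference. Clec4a2 stood at 20.2 ± 10.99 CPM in WT and 20.5 ± 9.27 in Tg-ACE, and Clec4a3 at 43.5 ± 16.4 and 40.5 ± 18.1 (SD, n = 3). Clec4n stood at 4.84 ± 1.49 and 4.47 ± 0.863 CPM, and Clec5a at 26.4 ± 7.10 and 24.9 ± 4.67 (SD, n = 3). Clec12a stood at 127.4 ± 32.7 and 122.1 ± 6.94 CPM (SD, n = 3), where WT held both the highest and the lowest library. Log2 fold changes of the 8 ran from -0.40 to 0.12, each with an edgeR adjusted p of 0.9998.

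With the experiment code as a term the biological coefficient of variation was 0.108, against 0.310 without it, and the intervals narrowed. Again 0 of 8 members passed in edgeR, with 0.0156% of all genes called, and the smallest member adjusted p was 0.791. Clec4d was 0.12 higher in Tg-ACE on the log2 scale (95% interval -0.02 to 0.27, unadjusted p = 0.0835), with 0.11 within Exp-156 and 0.13 within Exp-156b. Clec4e was at -0.33 (-0.74 to 0.07, unadjusted p = 0.0954), with -0.019 and -0.42 within the codes, so the lower value was seen in Exp-156b, where WT replicate 2 was high. Leaving that library out of the fit without the code gave 0.14, but WT then holds 1 library of each code against 1 and 2 for Tg-ACE, so the code difference enters this value. In the remaining libraries WT was the higher within each code, at 16.8 against 16.6 CPM and at 47.9 against 44.1 and 46.2 CPM. For Clec12a, Clec5a and Clec4a2 the intervals were -0.45 to 0.33, -0.31 to 0.17 and -0.30 to 0.38. For Clec4a3, Clec4n and Clec4a1 they were -0.53 to 0.26, -0.48 to 0.30 and -0.82 to 0.56. In this fit the interval was narrowest for Clec4d and widest for Clec4a1. DESeq2 with the code as a term called 0.288% of all genes and 0 members.

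**Figure D3:**
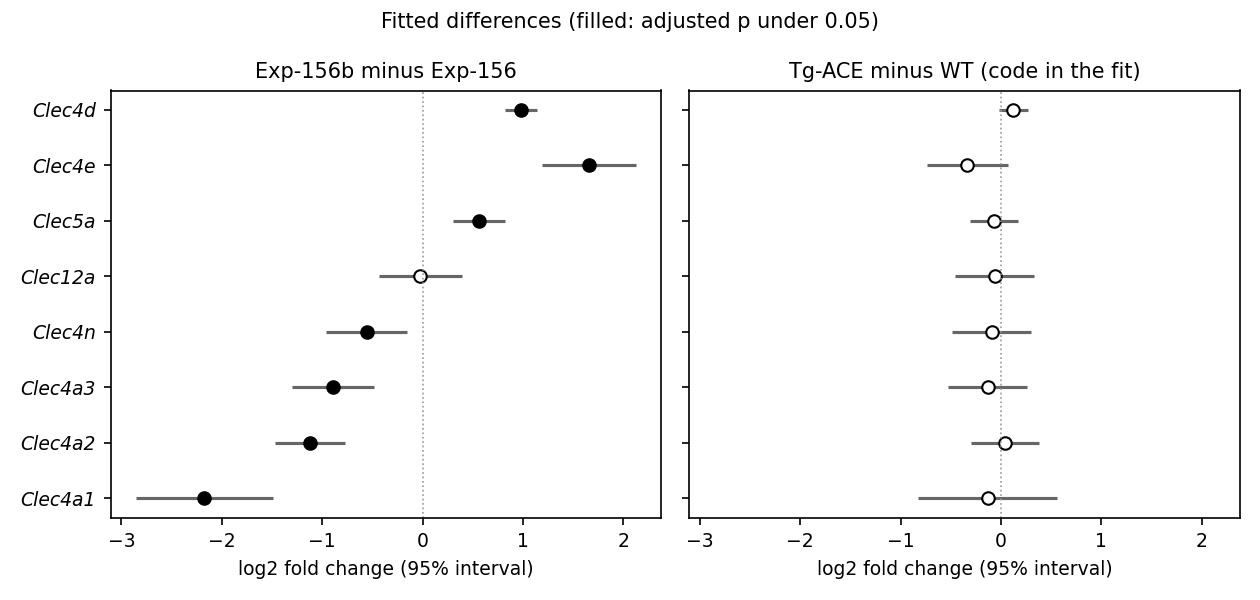
Fitted log2 fold changes of the 8 genes with 95% intervals from edgeR, Exp-156b minus Exp-156 on the left and Tg-ACE minus WT with the code in the fit on the right, on the same axis range; filled points have an adjusted p under 0.05. Left, 7 of 8 points are filled, from -2.17 for Clec4a1 to 1.66 for Clec4e; right, none is filled and each interval crosses 0.

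Whether the code difference depended on genotype was tested by an interaction term. Of the 8 members 0 passed in edgeR, with 0% of all genes called, and 0 had an unadjusted p under 0.05. The interaction terms lay between -0.73 and 0.33 log2 units with adjusted p from 0.767 to 0.981. The design has 1 Exp-156 library per genotype, so this term rests on single libraries there.

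Fcer1g and Tyrobp, the main adaptors of the activating receptors, did not pass the test between codes. Fcer1g had 484.1 and 479.5 CPM in Exp-156 and 482.2 to 550.7 CPM in Exp-156b (log2 fold change 0.10, edgeR adjusted p = 0.322), and Tyrobp had a log2 fold change of -0.039 (adjusted p = 0.792). Hcst, an adaptor gene whose protein also pairs with Clec5a, rose by 0.53 in Exp-156b (edgeR adjusted p = 0.0116) and was picked out after its values were seen. Syk, the kinase that Fcer1g and Tyrobp recruit, fell by 0.38 on the log2 scale in Exp-156b, and Card9, the adaptor downstream of it, fell by 0.49 (edgeR adjusted p = 0.00418 and 0.00178). Of the 16 genes listed for this pathway 3 were higher, 8 lower and 5 did not pass, with a median of -0.18. Of all genes 20.0% were higher and 22.9% lower. Genes with small p-values included the Src-family kinase gene Fgr (-1.72), the phospholipase gene Plcg2 (-0.62) and the kinase gene Btk (-0.69). Clec4d and Clec4e were thus higher in the libraries where Syk and Card9 were lower.

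Among phosphatases that inhibitory lectins recruit and their substrates, 1 of 6 genes was higher, 4 were lower and 1 did not pass. The shares over all genes were 20.0% higher and 22.9% lower. Ptpn6 fell by 0.64 and Inpp5d, a lipid phosphatase gene, fell by 0.36 on the log2 scale (edgeR adjusted p = 0.00311 and 0.00616). The adaptor gene Dok2 had 217.5 and 186.3 CPM in Exp-156 and 37.8 to 46.0 in Exp-156b, a log2 fold change of -2.23. Ptprc, the gene of the CD45 phosphatase, fell by 0.37.

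Of 28 other C-type lectin receptor genes 18 could be tested, and 5 were higher, 7 lower and 6 did not pass, with a median of -0.16. Over all genes the shares were 20.0% higher and 22.9% lower. Among the tested ones, the galactose-type lectin genes Clec10a and Mgl2 had the greatest fold differences. Their mean CPM was 17.9 and 53.0 times as high in Exp-156 as in Exp-156b (log2 fold changes -4.15 and -5.67). Clec10a had 92.1 and 110.8 CPM in Exp-156, against 3.86 to 6.92 CPM in Exp-156b. The endocytic receptor gene Ly75 went the other way, from 33.4 and 32.1 CPM to between 88.8 and 125.0 (log2 fold change 1.76), and the scavenger receptor gene Colec12 rose by 0.88. Cd209a, a lectin gene that is also on the dendritic cell list, had 27.5 and 18.0 CPM in Exp-156 and at most 0.318 CPM in Exp-156b. Cd209a had 511 and 673 counts in Exp-156 but only 2 to 8 in Exp-156b, and it did not pass the filter on low counts. That filter was set by the size of the genotype groups. A gene counted well only in the Exp-156 libraries fails it, so the number of lectin genes lower in Exp-156b leaves such genes out. The members of both directions were therefore inside the range of other lectin genes.

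**Figure D4:**
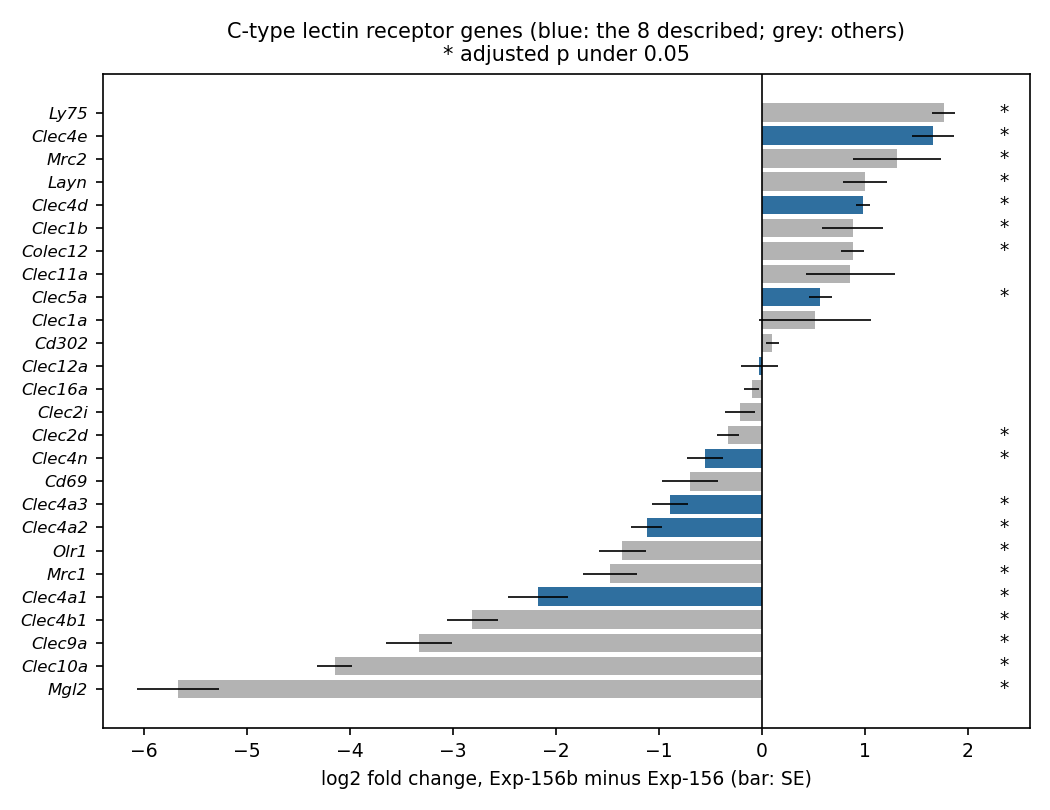
Log2 fold changes, Exp-156b minus Exp-156, with SE bars for the 8 described genes (blue) and the 18 other tested C-type lectin receptor genes (grey), ordered by size; stars mark an edgeR adjusted p under 0.05. Values run from -5.67 for Mgl2 to 1.76 for Ly75, with Clec4e at 1.66 next to Ly75 and Clec4a1 at -2.17 between Mrc1 and Clec4b1.

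Among tested cytokine and enzyme genes that Syk-Card9 signalling is known to turn on, 50% passed between codes, against 42.9% of all genes. Of 16 listed genes 10 were tested, 1 was higher, 4 were lower and 5 did not pass, with a median of -0.50. The chemokine gene Cxcl2 had 61.1 and 42.5 CPM in Exp-156 and 0.994 to 1.69 CPM in Exp-156b, a log2 fold change of -5.19. Tnf fell by 0.54, the transcription factor gene Egr2 rose by 0.53, and the chemokine gene Ccl4 did not pass at -0.56 (edgeR adjusted p = 0.0595). Among transcription factors of the myeloid lineage, 0 of 8 tested genes were higher, 4 were lower and 4 did not pass. The share called was again 50%, against 42.9% of all genes. Klf4, Irf4, Cebpa and Irf8 fell by 1.17, 1.02, 0.73 and 0.31. Cebpb, which encodes a C/EBP factor known to act on Clec4e, had a log2 fold change of 0.14 (edgeR adjusted p = 0.326), and Spi1, which encodes PU.1, one of 0.074 (adjusted p = 0.517). In the genotype comparison 0 genes of any of these 5 lists passed, with or without the code as a term.

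The genes with the closest pattern over the 6 libraries were taken among 9723 genes with a mean of at least 5 CPM, by Pearson's r of log2 CPM, as a description. The libraries share their 2 codes, so r is high for many genes and says mainly that a gene follows the codes. Closest to Clec4d were Fabp5 (r = 0.999), Rilpl1 and Gla, and 748 genes reached an r of at least 0.95. Closest to Clec4e were Polr3a, Fmnl3 and Mrpl35 (261 genes at that r), and to Clec5a Pfkfb3, Cd200r4 and Trit1 (116 genes). Closest to Clec4a1 were Ms4a6b (r = 0.999), Tnfrsf14 and Ly86 (494 genes). For Clec4a2 they were Gnb1, Zfp874a and Impdh1 (582 genes), for Clec4a3 Tmem170b, Ripk1 and Slc35f5 (193 genes), and for Clec4n Prkca, Rgs3 and Ppm1d (105 genes). Clec12a, which did not follow the codes, had 4 such genes, led by Pla2g16 (r = 0.984), Ldlrad3 (0.973) and Psmb9 (0.964). After the mean of each code was taken away, r was 0.980 for Clec4d with Fabp5, 0.992 for Clec4a1 with Ms4a6b and 0.987 for Clec12a with Pla2g16. These pairs were chosen for their r over the same libraries, so the second value is no separate support.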

How the data were processed

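Poly-A RNA of 6 macrophage samples was sequenced as stranded libraries with single 75-base reads, per the labels' protocols. The authors deposited RSEM expected counts per gene, not normalized. The submitters' processing notes list STAR 2.5.0 and RSEM 1.2.25 as tools, and GRCh38 and mm10 as builds. How strand was set in counting is not given in these sources. Of the values 11.0% to 11.4% per library were not whole, and all were rounded. The 92 spike-in rows (1 count in all) were left out.

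Tests used edgeR 4.0.16 (R 4.3.3): the quasi-likelihood test, TMM scaling, filterByExpr and Benjamini-Hochberg adjustment at 0.05 over 12827 genes. Genotype alone was fitted first. Genotype plus experiment code and their interaction followed. SE is the log2 fold change over the square root of F. CPM uses TMM-scaled totals, and log2 CPM a prior count of 2. In each library 3 counts equal 0.107 to 0.123 CPM, and this limit covers counting error only. None of the libraries were identical in their values. Same-numbered libraries correlated at 0.856, 0.483 and 0.637 in their deviations from group means, which the codes they share also give. DESeq2 1.42.0 and limma 3.58.1 served as alternatives. Scripts were tested on simulated data.

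The rule for named genes took all 8 members, up to 4 genes per related list with the smallest p between codes and a mean of at least 5 CPM, fixed pathway genes, and the 3 genes most like each member. Members and lists were chosen with earlier results of these data known. Gene names and positions came from GENCODE vM21 (25251 identifiers matched) and promoters from RefSeq.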

Additional observations from a re-analysis of the deposited data

Results flagged for a closer look

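Clec4e in WT replicate 2 stood far from the other 3 Exp-156b libraries. Its 76.7 CPM lay above 47.9, 46.2 and 44.1 CPM, and the gap to the nearest library was 0.8825 of the whole range, above Dixon's 95% critical value for 4 samples. Both genotypes are in this group of 4, and chance flags about 1 in 20 groups, while 8 genes were examined. WT replicate 2 was the highest of the 4 Exp-156b libraries for 6 of the 8 genes. Its log2 distance above the mean of the other 3 was 1.03 for Clec4a1, 0.73 for Clec4e, 0.55 for Clec4a3 and 0.55 for Clec12a. Clec4d and Clec4n were highest in Tg-ACE replicate 3.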

How the results depend on the processing

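Of 379 values under other settings 324 counted as the same. For fitted fold changes this meant the same direction and side of the threshold. For counts of genes or members called it meant a number within a fixed factor. For levels per length and for differences within a code or genotype it meant a change smaller than an SD among libraries. A genotype difference within a code could therefore change sign and still count as the same. Between codes Clec4a1, Clec4a2, Clec4d and Clec4e passed in each of 14 alternatives, and 5 to 7 members were called. Clec4n was lost with upper-quartile scaling (-0.48, adjusted p = 0.0638) and DESeq2 (-0.55, adjusted p = 0.0562), and the filter of 5 CPM removed it. Upper-quartile scaling turned Clec12a to 0.051, and 58.0% of the genes called then lay higher in Exp-156b, against 46.5% with TMM. Leaving out 1 library gave 1442 to 2382 genes higher (1442 without Tg-ACE replicate 1, 1487 without WT replicate 1) and 1961 to 2889 lower (1961 without WT replicate 1, 1967 without Tg-ACE replicate 1). Clec12a ranged from -0.21 to 0.11 and Clec4a3, Clec4n and Clec5a from -1.05 to -0.77, -0.72 to -0.39 and 0.45 to 0.68.

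Between genotypes 0 members passed in any of 17 alternatives. Over all genes, 1 was called lower without the low-count filter and 1 with limma-voom, 3 higher and 6 lower with DESeq2, 2 lower with the code as a term, 2 lower in Exp-156b alone, and 19 higher and 18 lower with DESeq2 and the code, a setting chosen after seeing the data. The fit with the replicate block called 2 genes lower, gave Clec4a1 -0.064 and changed no member's call. The Clec4a1 value was also -0.028 with limma-voom, -0.13 with the code, -0.41 in Exp-156b alone and -0.16 with DESeq2 and the code, and Clec4n was 0.024 in Exp-156b alone. Leaving out 1 library gave 0 genes higher and 0 to 1 lower, and ranges of -1.28 to 0.97 for Clec4a1, -0.42 to 0.54 for Clec4a2, -0.52 to 0.21 for Clec4a3, -0.13 to 0.39 for Clec4d, -0.81 to 0.14 for Clec4e, -0.26 to 0.17 for Clec4n, -0.28 to 0.10 for Clec5a and -0.22 to 0.15 for Clec12a. These fits have no code term, so leaving out a library unbalances the codes between the genotypes. The cause of the other changes was not tested. Depth limits Clec4n most, at 90 to 160 counts.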

Other observations

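Of the 3 neighbours of the described genes in the chromosome 6 cluster, Clec4b2 and Clec4a4 were scarcely counted. Clec4b2 had 1 count in WT replicate 3 and 0 elsewhere, and Clec4a4 had 0.0 to 15.77 expected counts per library. Clec4b1, which is not among the 8, was tested and had a log2 fold change of -2.81 between Exp-156b and Exp-156 (edgeR adjusted p = 1.47e-04). With the mean of each code removed, the genes closest to Clec4a1 among 9723 were the MHC class I genes H2-T22 and H2-K1 (r = 0.995 for both) and the interferon gamma receptor gene Ifngr1 (r = 0.994). H2-T22 and H2-K1 were higher in Exp-156b (log2 fold changes 1.10 and 1.15), where Clec4a1 was lower, so the 2 genes varied with Clec4a1 among libraries of 1 code and opposite to it between codes. For Clec12a the closest were Fnta, Cd84 and the immunoproteasome gene Psmb8 (r = 0.996, 0.993 and 0.993), and Psmb9, a second immunoproteasome gene, was among its 3 closest without that step. These genes were picked out after their values were seen, and r over 6 libraries is a description.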
